A study of Mus musculus with 79 samples.

Results

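Macrophage identity and polarization genes were examined in whole mammary tumors of obese and lean mice given or not given sulindac, an NSAID that blocks both cyclooxygenases and so the production of prostaglandins. Of 10 genes listed by symbol (Adgre1, Cd68, Mrc1, Cd163, Retnla, Chil3, Trem2, Gpnmb, Mertk and Folr2), 9 had a row in the microarray's gene table and were taken from the 19505 genes analysed. Cd68 was not analysed here. Each of the 9 had a single row, so no choice between rows was needed. The genes were listed by name, with earlier results of these data known.

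RNA from 79 tumors of 3 cell lines was hybridized to 1 microarray each. All mice were C57BL/6J females, 8 to 9 weeks old when the diets began and 33 to 34 weeks old at the end, with the tumor cells injected into mammary fat pad 4. DIO mice were made obese on a diet with 60 kcal% fat and Con mice stayed on a diet with 10 kcal% fat. After 15 weeks, part of each diet group also received 140 ppm sulindac in the diet (DIOSul and ConSul), for 5 weeks before injection and then onward. E0771 is a triple-negative mammary carcinoma line of this strain, while the metM-Wnt lines are metastatic populations of M-Wnt cells, metM-Wnt-lung taken from a lung lesion and metM-Wnt-liver from a liver lesion, so each line stands for 1 cultured population. E0771 tumors numbered 8 DIOSul, 8 DIO, 6 ConSul and 6 Con, metM-Wnt-lung tumors 7 DIOSul, 7 DIO, 6 ConSul and 6 Con, and metM-Wnt-liver tumors 7 DIOSul, 7 DIO, 4 ConSul and 7 Con. The labels number 1 mouse per tumor, and nothing in them says which mice shared a cage or an extraction.

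Macrophages are phagocytes that arise from embryonic precursors or from blood monocytes, and they take on different programs in different tissues. Interleukin 4 and interleukin 13, acting through STAT6, induce the alternative program, in which Retnla, Chil3 and Mrc1 are classical mouse markers. Resident macrophages around vessels and in fat are rich in scavenger and endocytic receptors such as Cd163, Mrc1 and Folr2. Macrophages that digest lipid and dying cells raise Trem2 and Gpnmb. In tumors these programs coexist, and prostaglandin E2 made by cyclooxygenases is known to act on myeloid cells.

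Promoter sequence is shown for the 3 genes whose upstream bases held the letters searched for: a STAT6-type palindrome (TTCNNNNGAA), because STAT6 drives the alternative program, and the core recognised by PU.1 (GAGGAA), the factor that specifies macrophages. Both strands were searched, and capitals mark the matches as they read on the strand printed, 5′ to 3′, ending just before the transcription start (RefSeq, GRCm38.p6). A promoter entry was matched for 8 of the 9 genes. Adgre1 had none.
Retnla, chr16:48842359-48842608, plus strand: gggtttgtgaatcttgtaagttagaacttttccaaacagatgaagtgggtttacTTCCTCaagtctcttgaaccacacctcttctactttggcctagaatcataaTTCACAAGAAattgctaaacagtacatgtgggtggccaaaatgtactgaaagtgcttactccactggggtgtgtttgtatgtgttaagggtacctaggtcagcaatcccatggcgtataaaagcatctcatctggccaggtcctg
Mrc1, chr2:14229164-14229413, plus strand: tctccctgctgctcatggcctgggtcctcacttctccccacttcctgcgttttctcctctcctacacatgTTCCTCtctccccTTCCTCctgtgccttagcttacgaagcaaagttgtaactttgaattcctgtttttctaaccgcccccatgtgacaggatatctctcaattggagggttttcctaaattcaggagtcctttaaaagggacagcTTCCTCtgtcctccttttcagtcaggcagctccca
Trem2, chr17:48346151-48346400, plus strand: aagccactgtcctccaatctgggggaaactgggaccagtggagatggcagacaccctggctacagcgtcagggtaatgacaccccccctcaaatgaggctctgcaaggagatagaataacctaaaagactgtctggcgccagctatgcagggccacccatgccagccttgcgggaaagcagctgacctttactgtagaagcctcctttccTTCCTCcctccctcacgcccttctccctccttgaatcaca
Retnla held 1 STAT6-type palindrome, beginning 145 bases before its start, and 1 PU.1 core. Mrc1 held 3 PU.1 cores and Trem2 held 1. Cd163, Chil3, Gpnmb, Mertk and Folr2 held neither. Among 32851 mouse promoters of the same length, 5.85% held the palindrome and 23.3% the PU.1 core. An E-box (CACGTG) and the M-box of MITF targets (TCANNTGA), which overlap neither of the printed motifs here, were found in 6.02% and 7.09% of promoters, and among these genes 1 M-box was found, in Trem2. A match of letters is a description, not a site.

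Several facts of the arrays bear on every result. The 6 metM-Wnt-lung Con arrays and the 4 metM-Wnt-liver ConSul arrays stood apart in spread. The top percentile of their log2 values began between 16.28 and 16.48, against 16.10 to 16.34 in the other metM-Wnt arrays, and their bottom percentile ended between 3.10 and 3.15, against 3.19 to 3.27. Why they did is not given in the sources used here. As each of these 2 sets is a whole group of its line, a separate batch, an exchange of labels and the condition itself cannot be told apart in the metM-Wnt results that use them. Each of these 2 sets also had the highest mean adipocyte score of its line. Single tumors of other sets, metM-Wnt-lung DIO 4 and metM-Wnt-liver Con 4, scored above the lowest of them in the same line. These scores are centred on the mean of each line and do not rank the lines. Adipoq, the fat cell hormone adiponectin, spanned 9.94 to 19.30 in metM-Wnt-lung Con tumors and 10.95 to 15.64 in metM-Wnt-liver ConSul tumors, against medians of 1.59 to 7.72 in the other 6 metM-Wnt sets, whose highest tumors reached 11.81 (metM-Wnt-lung DIO) and 11.70 (metM-Wnt-liver Con). In E0771 sets its mean lay between 10.58 (DIO) and 12.72 (Con), with a highest tumor of 18.1 in Con. Krt8, a keratin of carcinoma cells, reached 9.58 to 12.66 in metM-Wnt-lung Con tumors, and 12.20 to 15.88 in the other metM-Wnt-lung tumors. Krt18 and Epcam, also epithelial genes, were not lower there. Krt18 averaged 6.90 in metM-Wnt-lung Con tumors and 3.74 to 4.38 in the other sets of the line, and Epcam 7.41 against 4.79 to 4.86. Muscle genes were high in some arrays of nearly every set, and skin genes in 6 DIOSul arrays in all. With these arrays left out, 2 of 7 metM-Wnt-lung DIOSul tumors remained. The macrophage colony-stimulating factor receptor Csf1r, which defines the lineage, lay between 9.99 and 15.01 in all 79 tumors.

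Levels are given first over the 12 sets of line and condition, as log2 array values, which rank tumors for a gene but do not rank genes against each other. Adgre1, the adhesion receptor that marks mouse macrophages, had its highest set mean in metM-Wnt-liver ConSul tumors (15.02 ± 0.24, SD, n = 4), followed by metM-Wnt-lung Con tumors (14.71 ± 0.34, n = 6), and its lowest in E0771 DIO tumors (11.53 ± 0.47, n = 8). The widest step in that order lay just above E0771 DIO, 1.17 below E0771 Con. Only 2 of its 11 steps between neighbouring sets were wider than the larger SD of the pair.

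Among the scavenger and resident receptors, Mrc1 (CD206, the mannose receptor) varied least, with set means between 12.46 and 14.50 and no step wider than the larger SD. Cd163, the receptor for haemoglobin bound to haptoglobin, ranged from a set mean of 4.97 in metM-Wnt-lung DIO tumors to 9.91 in metM-Wnt-lung Con tumors. Its widest step, 2.02, separated E0771 DIO at 8.33 from metM-Wnt-liver DIOSul at 6.30. All 4 E0771 sets and the 2 metM-Wnt sets that stood apart lay above that step. Folr2, the beta folate receptor of resident macrophages, ran between 9.39 in metM-Wnt-lung DIO tumors and 12.88 in metM-Wnt-lung Con tumors in small steps, none of them wider than the larger SD. Mertk, a receptor tyrosine kinase for apoptotic cells, divided the lines, with all E0771 sets at 9.05 or below and all metM-Wnt sets at 10.03 or above.

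Of the alternative activation genes, Retnla (a secreted resistin-like protein induced through STAT6) had the widest range of all 9 genes, from a set mean of 2.44 ± 1.80 (n = 7) in metM-Wnt-lung DIO tumors to 10.52 ± 2.20 (n = 6) in E0771 ConSul tumors. In the first of these sets its median, 1.89, lay under the bottom percentile of the arrays. Chil3 (Ym1, a chitinase-like protein that neutrophil precursors also make) stayed between 8.87 and 10.56, with no step wider than the larger SD.

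The lipid-associated genes split the lines in opposite directions. Trem2, a lipid-sensing receptor, was at or below 8.72 in every E0771 set and at or above 10.24 in every metM-Wnt set. Gpnmb, a lysosomal membrane glycoprotein, was at or above 12.97 in the E0771 sets and at or below 11.04 in the metM-Wnt sets. Melanocytes also make Gpnmb, and their defining genes were near the bottom of the arrays everywhere, Tyr between 3.15 and 5.20 and Dct between 3.11 and 4.59. The share of Gpnmb RNA from the carcinoma cells, whose line differs between these sets, was not tested.

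**Figure D1:**
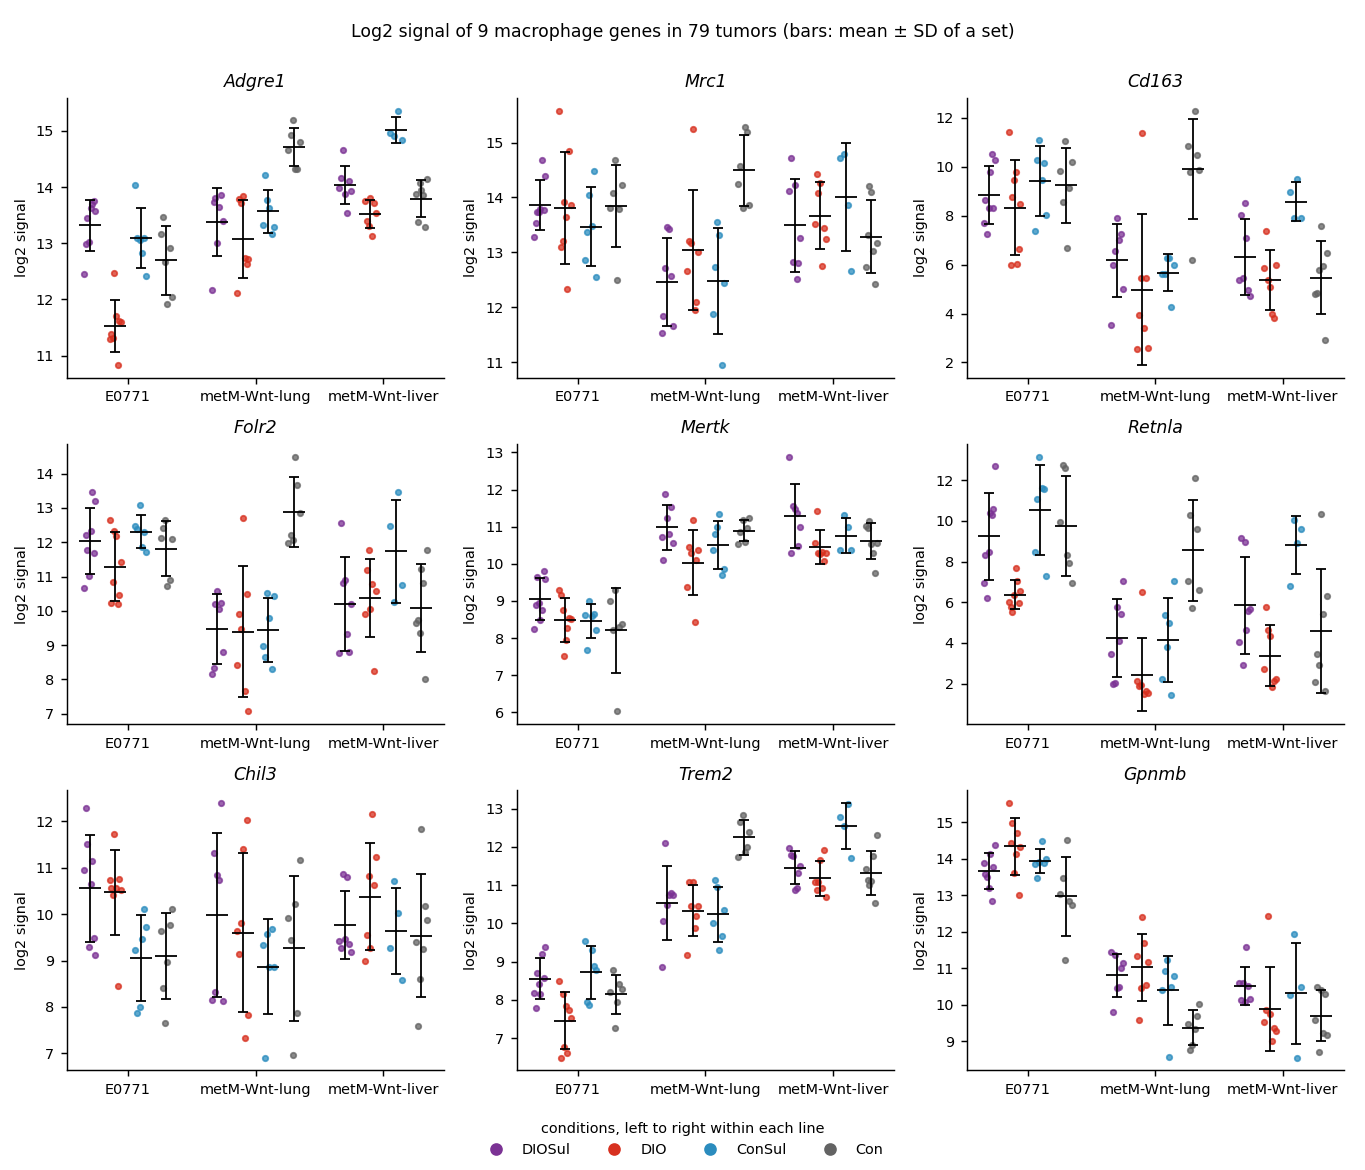
Log2 array value of the 9 genes in each of the 79 tumors, in 12 sets of line and condition, 1 point per tumor and a bar at the set mean. Trem2 and Mertk lie lower and Gpnmb higher in E0771 sets than in all metM-Wnt sets, while Cd163 and Retnla spread over several log2 units within sets.

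The lines were then compared over the mean of the 4 conditions, in 1 limma model of the 12 sets. A gene was called where its adjusted p (Benjamini-Hochberg over 19505 genes) was under 0.05. Whether the 3 lines were normalized together is not given in the sources used here. In metM-Wnt-lung against E0771 tumors 8 of 9 genes were called, where 63.1% of all genes were, and in metM-Wnt-liver against E0771 tumors 7 of 9, where 62.8% were. These shares are read against a background in which most genes differed.

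Trem2 was higher by 2.62 ± 0.17 (SE) in metM-Wnt-lung and by 3.41 ± 0.17 in metM-Wnt-liver tumors than in E0771 tumors. Mertk was higher by 2.05 ± 0.18 and 2.23 ± 0.18, and Adgre1 by 1.02 ± 0.13 and 1.43 ± 0.13. By condition, Adgre1 was not called in metM-Wnt-lung DIOSul (0.050, adjusted p = 0.89) or ConSul tumors (0.48, adjusted p = 0.145). Lower in both metM-Wnt lines were Gpnmb (−3.33 ± 0.22 in metM-Wnt-lung, −3.62 ± 0.22 in metM-Wnt-liver), Retnla (−4.12 ± 0.56 and −3.30 ± 0.57), Cd163 (−2.27 ± 0.45 and −2.53 ± 0.46) and Folr2 (−1.57 ± 0.31 and −1.27 ± 0.32). In metM-Wnt-lung Con tumors, which stood apart, Cd163 and Folr2 were not lower than in E0771 Con tumors (0.67, adjusted p = 0.627, and 1.06, adjusted p = 0.199). Retnla was lower there without a call (−1.19, adjusted p = 0.457). In metM-Wnt-liver ConSul tumors, which also stood apart, none of Cd163 (−0.83, adjusted p = 0.602), Retnla (−1.69, adjusted p = 0.351) and Folr2 (−0.57, adjusted p = 0.609) was called against E0771 ConSul tumors. Folr2 was not called in metM-Wnt-liver DIO tumors either (−0.93, adjusted p = 0.205). With adipocyte and muscle scores in the model of the 4 conditions neither Cd163 nor Folr2 was called, Cd163 standing at 0.14 in metM-Wnt-lung (adjusted p = 0.78) and −0.037 in metM-Wnt-liver (adjusted p = 0.946), and Folr2 at −0.30 (adjusted p = 0.457) and 0.10 (adjusted p = 0.815). Mrc1 was called in metM-Wnt-lung (−0.63, adjusted p = 0.00895) and not in metM-Wnt-liver (−0.14, adjusted p = 0.612), without a called difference between these lines in that mean. Against E0771 by condition, Mrc1 was called in metM-Wnt-lung only in DIOSul tumors (−1.4, adjusted p = 0.003). In Con tumors it was higher there without a call (0.65, adjusted p = 0.272). Chil3 passed in neither line, with differences of −0.37 and 0.026. In metM-Wnt-lung against metM-Wnt-liver tumors 2 of 9 were called, both lower, where 17.3% of all genes were called. They were Adgre1 (−0.41 ± 0.13, adjusted p = 0.0191) and Trem2 (−0.78 ± 0.18, adjusted p = 0.000495). By condition both were called lower only in ConSul tumors (−1.45 and −2.31), where the metM-Wnt-liver arrays stood apart. In Con tumors, where the metM-Wnt-lung arrays stood apart, both were called higher (0.92 each, adjusted p = 0.0049 and 0.037). In DIO and DIOSul tumors both were lower without a call. Without the Con and ConSul conditions, which hold the arrays that stood apart, the metM-Wnt-lung and metM-Wnt-liver counts against E0771 were again 8 and 7. With a score of 17 other pan-macrophage genes in the model, Adgre1 turned to −0.32 (adjusted p = 0.0165) in metM-Wnt-lung and −0.38 (adjusted p = 0.029) in metM-Wnt-liver against E0771. In whole tumors, fewer macrophages and less of an RNA per macrophage cannot be told apart, here and in all that follows. Nor can the RNA of macrophages be told apart from that of other cells, carcinoma cells included.

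**Figure D2:**
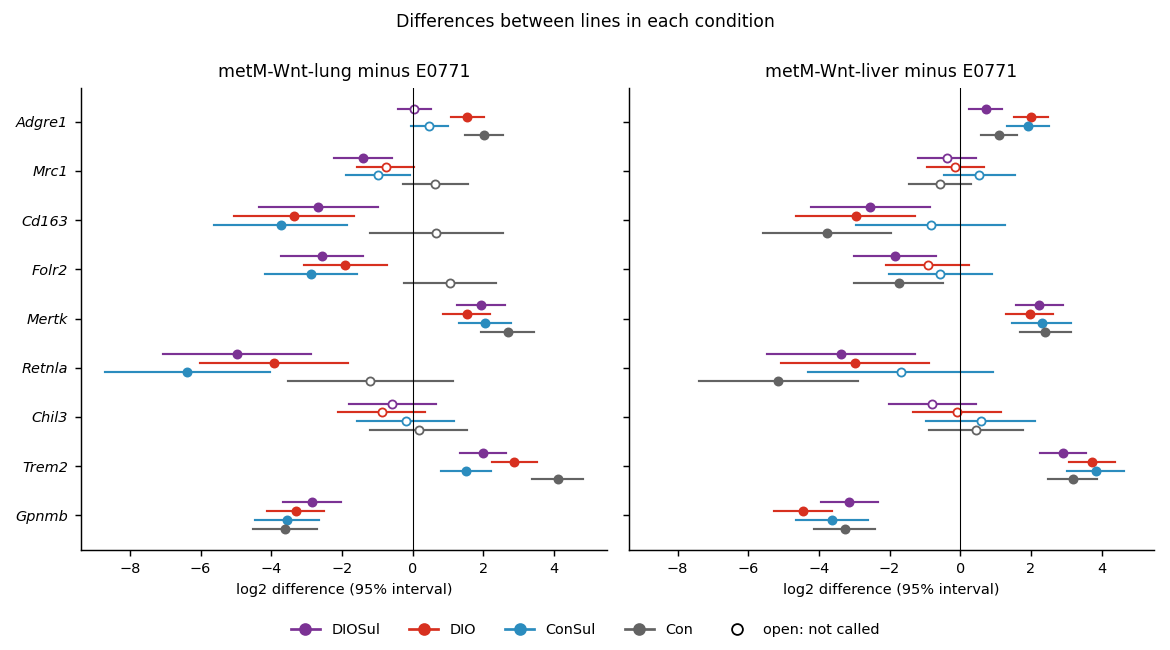
Differences in log2 value between metM-Wnt and E0771 tumors for the 9 genes, in each of the 4 conditions, with 95% confidence intervals. Trem2 and Mertk lie above 0 and Gpnmb below 0 in all conditions of both metM-Wnt lines, whereas Adgre1 in DIOSul tumors of metM-Wnt-lung lies at 0.050.

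Obesity was examined first in E0771 tumors, as DIO against Con. Of the 9 genes 3 were called, the macrophage marker Adgre1 and the STAT6-induced Retnla lower in DIO and the lysosomal Gpnmb higher, where 5.17% of all genes were called (472 higher and 536 lower). Adgre1 had its lowest, median and highest values at 10.83, 11.50 and 12.47 in DIO tumors and at 11.91, 12.80 and 13.46 in Con tumors. All but 1 of the 8 DIO tumors lay below every Con tumor. The difference was −1.17 ± 0.26 (SE, adjusted p = 0.0122).

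Retnla reached 5.54, 6.19 and 7.66 (lowest, median, highest) in DIO tumors and 6.96, 9.14 and 12.75 in Con tumors. The DIO tumors were uniformly low, 6 of 8 of them below every Con tumor, and the Con tumors spread widely. The difference was −3.38 ± 0.96 (adjusted p = 0.0388), and it did not pass when any of 8 single tumors was left out (Con 1, 2 or 3, or DIO 1, 2, 3, 7 or 8, adjusted p = 0.0579 to 0.11) or with trended robust variances (adjusted p = 0.0551). Gpnmb stood at 13.02, 14.38 and 15.53 in DIO tumors and at 11.22, 12.95 and 14.51 in Con tumors. Every DIO tumor was above the Con median, and the groups overlapped. The difference was 1.37 ± 0.36 (adjusted p = 0.0285), which did not pass without Con 3 or 5 or DIO 1 or 3 (adjusted p = 0.0509 to 0.0852), nor with only the DIO and Con tumors in the model (adjusted p = 0.0983) or with the replicate block (adjusted p = 0.0524).

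The other 6 genes were not called. Their differences lay between −0.91 for Cd163 (adjusted p = 0.538) and 1.38 for Chil3 (adjusted p = 0.102), with Mrc1 at −0.036. Chil3 passed when DIO 6, its lowest DIO tumor, was left out (1.67, adjusted p = 0.0435).

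The wider macrophage lists place these values. Of 17 other pan-macrophage and monocyte genes, 10 were lower in DIO and none higher, with a median difference of −0.97 against 0.00042 over all genes, among them the complement component C1qa (−1.24) and the calcium-binding Aif1 (−1.49). Fewer genes of the other macrophage lists were called, beside the 5.17% of all genes. Of resident macrophage genes 1 of 12 was lower, a share near that background, of alternative activation genes 3 of 14, including the chemokine Ccl22 (−1.94), and of classical activation genes 2 of 14, including the interferon-induced chemokine Cxcl9 (−2.91). Of 16 efferocytosis and scavenger genes none was called, and of 12 genes of the interleukin 4 and STAT6 pathway 1 was lower. The score of lipid-associated and lysosomal genes overlapped, at −0.468 to −0.037 in DIO and −0.387 to 0.404 in Con tumors. Its mean was −0.231 in DIO and −0.045 in Con tumors, while Gpnmb, which is not in that list, was higher in DIO. Other cells moved as well. Neutrophil genes S100a8 (3.47) and Retnlg (3.54) were higher in DIO tumors, as 2 of 10 in their list, with the list's score between −0.16 and 2.79 in DIO and between −1.29 and 1.10 in Con tumors. Of 8 T cell genes 4 were lower. No adipocyte gene was called, and the adipocyte score overlapped widely, −2.22 to 1.05 in DIO and −1.37 to 4.64 in Con tumors. The part of neutrophils and T cells in the 3 called genes was not tested, and values with adipocyte and muscle scores in the model are given further on. The bottom percentile of the arrays ended between 3.20 and 3.45 in DIO tumors, against 3.14 to 3.22 in the other E0771 tumors.

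Sulindac in obese mice, DIOSul against DIO, gave 2 called genes in E0771 tumors, both higher, the macrophage marker Adgre1 and the lipid sensor Trem2, where 5.03% of all genes were called. Adgre1 stood at 12.46, 13.52 and 13.75 (lowest, median, highest) in DIOSul tumors and at 10.83, 11.50 and 12.47 in DIO tumors. The groups overlapped by 1 tumor, and 7 of 8 DIOSul tumors exceeded every DIO tumor. The difference of 1.80 ± 0.25 (adjusted p = 4.1e-05) was called whichever tumor was left out. Trem2 stood at 7.79, 8.50 and 9.39 in DIOSul tumors and at 6.49, 7.63 and 8.48 in DIO tumors. All DIOSul tumors were above the DIO median. Its difference was 1.10 ± 0.30 (adjusted p = 0.0268), and it did not pass without DIO 2, 4 or 6 or DIOSul 6 or 8 (adjusted p = 0.0553 to 0.064), nor without the E0771 arrays high in muscle or skin genes, 3 of them DIOSul and none DIO (adjusted p = 0.0984). Both comparisons of obese mice use the same 8 DIO tumors, so that their values for a gene are not independent.

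Retnla missed the threshold here. It stood at 6.22, 9.39 and 12.69 in DIOSul tumors and at 5.54, 6.19 and 7.66 in DIO tumors, a difference of 2.87 ± 0.89 (adjusted p = 0.0586). Every DIOSul tumor lay above the DIO median. The difference passed without any of 6 single tumors (Con 2, 3 or 6, ConSul 6, or DIOSul 1 or 3, adjusted p = 0.0301 to 0.0485). The other 6 genes had differences between −0.68 for Gpnmb (adjusted p = 0.275) and 0.75 for Folr2 (adjusted p = 0.327).

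Among the 17 other pan-macrophage genes 15 were higher in DIOSul tumors and none lower (median 1.47 against −0.021 over all genes), with Aif1 at 2.14 and the lysosomal protease Ctss at 1.60. Their score lay between 0.22 and 0.94 in DIOSul tumors and between −1.43 and 0.14 in DIO tumors. Classical activation genes rose in 6 of 14, with Cxcl9 at 3.71, alternative activation genes in 3 of 14, resident genes in 2 of 12 and lipid-associated genes in 3 of 17, including lipoprotein lipase, Lpl (2.89). T cell genes rose in 6 of 8 and neutrophil genes fell in 2 of 10, and the muscle score reached 6.61 in DIOSul tumors against 0.33 in DIO tumors.

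In lean mice sulindac gave no call in E0771 tumors. ConSul against Con had 0 called genes of 9 and 0% of all genes by limma, with 1 of the 9 and 1636 of all genes at an unadjusted p under 0.05. Adgre1 differed by 0.39 (adjusted p = 0.763) and Retnla by 0.77 (adjusted p = 0.9). DIOSul against ConSul had 0 of 9 called (1 at an unadjusted p under 0.05), where 0.0974% of all genes were called. The interaction, which asks whether sulindac acted differently in obese than in lean mice, had 0 of 9 called and 0.405% of all genes. Adgre1 came nearest, at 1.40 ± 0.37 (adjusted p = 0.0769), and it passed without Con 4 or 6, ConSul 1 or DIO 4 (adjusted p = 0.0247 to 0.0476). Gpnmb, at −1.65 (adjusted p = 0.122), passed without Con 4 (adjusted p = 0.0356).

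**Figure D3:**
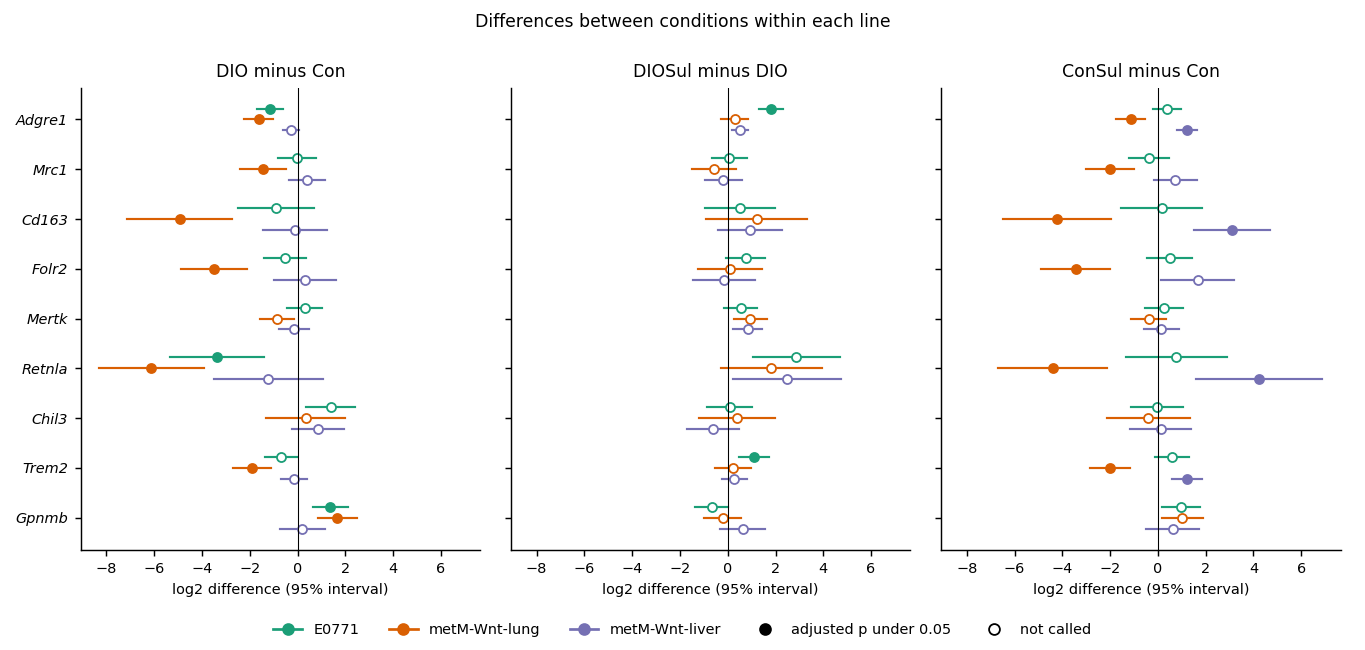
Log2 differences of the 9 genes with 95% confidence intervals in the 3 lines, for DIO minus Con, DIOSul minus DIO and ConSul minus Con, with filled points for adjusted p under 0.05. The called differences of Cd163, Retnla and Folr2 lie on the lower side in metM-Wnt-lung and, for Retnla, in E0771 DIO minus Con, and those of Cd163 and Retnla on the higher side in metM-Wnt-liver ConSul minus Con.

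In metM-Wnt-lung tumors, DIO against Con gave 7 called genes of 9, where 27.4% of all genes were called. The macrophage marker Adgre1, the mannose and haemoglobin receptors, the folate receptor, Retnla and Trem2 were lower in DIO, and Gpnmb was higher. Every one of these rests on the Con arrays that stood apart. In DIO against ConSul tumors, which differ in sulindac as well as in diet, 0 of the 9 genes were called, where 2.15% of all genes were (420 genes).

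Cd163 stood at 2.54, 3.93 and 11.39 (lowest, median, highest) in DIO tumors and at 6.20, 10.17 and 12.29 in Con tumors. All DIO tumors but 1, replicate 4, lay below every Con tumor. The difference was −4.94 ± 1.06 (adjusted p = 0.00125). Retnla stood at 1.47, 1.89 and 6.48 in DIO tumors and at 5.73, 8.32 and 12.11 in Con tumors. The same tumor, DIO 4, was the only one to reach the Con range, and the DIO median lay under the bottom percentile of the arrays. Its difference was −6.12 ± 1.07 (adjusted p = 0.000156). Folr2 stood at 7.07, 9.46 and 12.70 in DIO tumors and at 11.99, 12.54 and 14.49 in Con tumors, a difference of −3.49 ± 0.68 (adjusted p = 0.000449). Again 6 of 7 DIO tumors lay below every Con tumor.

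Mrc1 stood at 11.96, 13.01 and 15.25 in DIO tumors and at 13.81, 14.41 and 15.29 in Con tumors. DIO 4 was once more the highest of its group, inside the Con range. The difference of −1.45 ± 0.47 (adjusted p = 0.0226) did not pass without Con 4, Con 5 or DIO 5 (adjusted p = 0.0533 to 0.0574), nor without the arrays high in muscle or skin genes (adjusted p = 0.0501). Adgre1 stood at 12.11, 12.73 and 13.84 in DIO tumors and at 14.33, 14.74 and 15.20 in Con tumors, and Trem2 at 9.18, 10.45 and 11.08 in DIO tumors and at 11.73, 12.20 and 12.83 in Con tumors. Those 2 genes did not overlap between the groups, where 6.92% of all genes did not. Their differences were −1.63 ± 0.29 (adjusted p = 0.000168) and −1.92 ± 0.39 (adjusted p = 0.000645).

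Gpnmb went the other way, at 9.60, 11.17 and 12.42 in DIO tumors and 8.77, 9.42 and 10.03 in Con tumors. All but 1 of the DIO tumors exceeded every Con tumor, and the difference was 1.66 ± 0.40 (adjusted p = 0.00307). Mertk (−0.86, adjusted p = 0.0627) and Chil3 (0.33, adjusted p = 0.794) were not called.

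DIO 4 had an adipocyte score of 3.28, against −3.83 to −2.15 in the other 6 DIO tumors and 1.83 to 8.99 in Con tumors. Without it 8 genes were called. Cd163 was then at −6.01, Retnla at −6.79, Folr2 at −4.05, Mrc1 at −1.81 and Mertk at −1.05 (adjusted p = 0.0185).

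All 9 adipocyte markers were lower in DIO tumors (median −6.18), as were 6 of 9 fibroblast and 7 of 8 T cell markers. Of the other pan-macrophage genes 15 of 17 were lower, including the Fc receptor Fcgr1 (−2.75) and Spi1, which encodes PU.1 (−1.77), with a median of −1.60 against 0.044 over all genes. Resident macrophage genes were lower in 10 of 12, among them the growth factor Igf1 (−5.16), which fat cells and fibroblasts also make, and the sialic acid receptor Siglec1 (−2.64). Alternative activation genes were lower in 6 of 14 and higher in 1, and classical activation genes lower in 10 of 14. Efferocytosis genes were divided, 3 higher and 5 lower of 16, with Elmo1, which helps a phagocyte engulf dying cells, at −1.78. Lipid-associated genes were lower in 7 of 17 and higher in 2, with Lpl at −5.97. With adipocyte and muscle scores in the model none of the 9 genes was called (1.89% of all genes were), and Cd163 stood at 2.15 (adjusted p = 0.214). With the score of other pan-macrophage genes, none was called either (1.65% of all genes were), and Adgre1 stood at 0.35 (adjusted p = 0.463). That score did not overlap between the groups, −1.57 to 0.001 in DIO and 0.789 to 1.21 in Con tumors, so this model cannot tell it apart from the condition. Since the fat-rich tumors are nearly all Con tumors, diet and adipocyte RNA cannot be told apart in this line.

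Sulindac in obese mice gave 0 called genes of 9 in metM-Wnt-lung tumors by limma, where 0.246% of all genes were called and 1 of the 9 and 2298 of all genes had an unadjusted p under 0.05. Retnla differed by 1.82 ± 1.02 (adjusted p = 0.534), Cd163 by 1.21 ± 1.02 (adjusted p = 0.747) and Adgre1 by 0.30 ± 0.28 (adjusted p = 0.78), with 95% intervals of −0.29 to 3.93 for Retnla, −0.89 to 3.31 for Cd163 and −0.27 to 0.86 for Adgre1. Without DIO 4 none was called, Mertk being nearest at 1.14 (adjusted p = 0.07). Likewise 0 of 9 were called in DIOSul against ConSul tumors, 0 of them at an unadjusted p under 0.05 (1819 of all genes), where 0.226% of all genes were called after adjustment.

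Sulindac in lean mice, ConSul against Con, gave 6 called genes in this line, all lower in ConSul, where 17.4% of all genes were called. It rests on the same 6 Con arrays. Of the 6, 4 did not overlap between the groups, Adgre1, Mrc1, Trem2 and Folr2, where 7.66% of all genes did not.

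Folr2 stood at 8.29, 9.39 and 10.51 in ConSul tumors and at 11.99, 12.54 and 14.49 in Con tumors, a difference of −3.44 ± 0.70 (adjusted p = 0.00145). Mrc1 stood at 10.95, 12.60 and 13.55 in ConSul tumors and at 13.81, 14.41 and 15.29 in Con tumors, a difference of −2.02 ± 0.48 (adjusted p = 0.0055). Both receptors were thus lower in every ConSul than in any Con tumor. Cd163 stood at 4.27, 5.81 and 6.28 in ConSul tumors and at 6.20, 10.17 and 12.29 in Con tumors, overlapping by a narrow margin, with a difference of −4.24 ± 1.10 (adjusted p = 0.00965). Retnla (−4.41 ± 1.11), Trem2 (−2.01 ± 0.40) and Adgre1 (−1.14 ± 0.30) were lower too, while Gpnmb was at 1.03 (adjusted p = 0.0854) and passed without ConSul 4, its lowest ConSul tumor (1.39, adjusted p = 0.0107).

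Of other pan-macrophage genes 11 of 17 were lower and of resident genes 11 of 12, with Siglec1 at −2.75 and the platelet factor gene Pf4 at −2.08. All 9 adipocyte markers were lower (median −5.55), their score lying between −2.98 and 0.98 in ConSul tumors. With the adipocyte and muscle scores none of the 9 genes was called, where 2.84% of all genes were. With the pan-macrophage score none was called either, where 5.93% of all genes were. Without the arrays high in muscle or skin genes Adgre1 and Cd163 were not called (adjusted p = 0.0884 and 0.146).

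The interaction of diet and sulindac was called for 5 genes in metM-Wnt-lung, all positive, where 8.99% of all genes were called. These were Adgre1 (1.44 ± 0.41, adjusted p = 0.0275), Cd163 (5.44 ± 1.50, adjusted p = 0.0246), Folr2 (3.53 ± 0.96, adjusted p = 0.0221), Retnla (6.23 ± 1.51, adjusted p = 0.0115) and Trem2 (2.22 ± 0.54, adjusted p = 0.0123). For each of the 5 the Con tumors had the highest mean of the 4 conditions. All 9 adipocyte markers had a positive interaction as well (median 5.74). Adgre1 did not pass without ConSul 5 (adjusted p = 0.0503), and none of the 5 passed without the arrays high in muscle or skin genes, which leaves 2 DIOSul tumors (adjusted p = 0.0709 for Retnla to 0.316 for Cd163).

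In metM-Wnt-liver tumors obesity and sulindac in obese mice gave no call at all. DIO against Con had 0 of the 9 genes and 0% of all genes called by limma, with 0 of the 9 and 1045 of all genes at an unadjusted p under 0.05. Adgre1 differed by −0.27 ± 0.17 and Retnla by −1.22 ± 1.10. DIOSul against DIO had 0 of the 9 genes and again 0% called, with 3 of the 9 and 1470 of all genes at an unadjusted p under 0.05. Those 3 were Adgre1 (0.52 ± 0.17, adjusted p = 0.385), Retnla (2.48 ± 1.10, adjusted p = 0.605) and Mertk (0.83 ± 0.30, adjusted p = 0.471). In 6 of 7 DIOSul tumors Adgre1 exceeded every DIO tumor.

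ConSul against Con in this line gave 4 called genes, all higher in ConSul, where 11.4% of all genes were called. The 4 ConSul tumors are those whose arrays stood apart. Adgre1 was 14.83, 14.90, 14.97 and 15.36 in ConSul tumors, against 13.29, 13.88 and 14.14 (lowest, median, highest) in Con tumors. Cd163 was 7.89, 7.91, 8.95 and 9.50 in ConSul tumors, against 2.90, 5.76 and 7.56 in Con tumors. These 2 genes did not overlap, where 6.73% of all genes did not. The differences were 1.22 ± 0.20 (adjusted p = 0.000325) and 3.10 ± 0.77 (adjusted p = 0.0105).

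Retnla was higher by 4.23 ± 1.29 (adjusted p = 0.0346) and Trem2 by 1.22 ± 0.30 (adjusted p = 0.0102). Retnla was 6.81, 8.91, 9.58 and 10.03 in ConSul tumors, against 1.66, 3.48 and 10.33 (lowest, median, highest) in Con tumors, of which Con 4 exceeded all ConSul tumors. Retnla did not pass without any one of 7 tumors (Con 1, 2, 3 or 6, or ConSul 2, 3 or 4, adjusted p = 0.0574 to 0.102), nor Trem2 without ConSul 3 (adjusted p = 0.0506), and without the arrays high in muscle or skin genes both missed the threshold (adjusted p = 0.0787 and 0.0529). Other pan-macrophage genes were higher in 15 of 17, with C1qb at 1.10 and Fcgr1 at 1.35, and resident genes in 4 of 12. All 9 adipocyte markers were higher (median 4.38), the score lying between 3.65 and 6.54 in ConSul tumors and between −3.81 and 3.90 in Con tumors. With the adipocyte and muscle scores 1 gene was called, Adgre1 (1.10, adjusted p = 0.0268), where 1.83% of all genes were. With the pan-macrophage score none of the 9 genes was called, where 0.0513% of all genes were. Sulindac and adipocyte RNA cannot be told apart for Cd163 and Retnla in these tumors.

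DIOSul against ConSul, which rests on the same 4 tumors, had 2 called genes, where 13.2% of all genes were called. Adgre1 was lower by 0.98 in DIOSul tumors (adjusted p = 0.00199) and Trem2 lower by 1.09 (adjusted p = 0.0176), and Trem2 did not pass without ConSul 1 or 3 (adjusted p = 0.0601 to 0.0777) or without the arrays high in muscle or skin genes (adjusted p = 0.173). Adgre1 alone of the 9 genes did not overlap, where 9.03% of all genes did not. Cd163 was at −2.26 (adjusted p = 0.051) and passed without any of 6 single tumors (adjusted p = 0.0217 to 0.0486). The interaction was called for 0 of 9 genes by limma (3 at an unadjusted p under 0.05), where 2.22% of all genes were called.

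Whether the lines differed in a response was tested directly. For DIO minus Con, metM-Wnt-lung against E0771 tumors had 2 of 9 genes called, where 6.72% of all genes were, Cd163 (−4.03 ± 1.27, adjusted p = 0.0401) and Folr2 (−2.97 ± 0.88, adjusted p = 0.0276). MetM-Wnt-liver against E0771 had 0 called, where 0.0615% of all genes were, and metM-Wnt-lung against metM-Wnt-liver had 6, all negative, where 11.5% were, the largest in size being Retnla (−4.90 ± 1.56) and Cd163 (−4.84 ± 1.26). For DIOSul minus DIO, 1 gene differed in each metM-Wnt line against E0771, and in both it was Adgre1. Its response was smaller by 1.50 ± 0.34 in metM-Wnt-lung (adjusted p = 0.0179), where 0.497% of all genes were called, and by 1.28 ± 0.34 in metM-Wnt-liver (adjusted p = 0.0482), where 0.692% were, the second of these not passing under quantile normalization (adjusted p = 0.0515). MetM-Wnt-lung against metM-Wnt-liver had 0 called and 0% of all genes. The means behind this response hold none of the arrays that stood apart.

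For ConSul minus Con, metM-Wnt-lung against E0771 had 5 genes called, where 7.81% of all genes were, metM-Wnt-liver against E0771 had 0, where 3.48% were, and metM-Wnt-lung against metM-Wnt-liver had 6, where 29.9% were. In the last of these both sides rest on arrays that stood apart, Con in one line and ConSul in the other. Retnla differed there by −8.64 ± 1.73 and Cd163 by −7.33 ± 1.39.

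**Figure D4:**
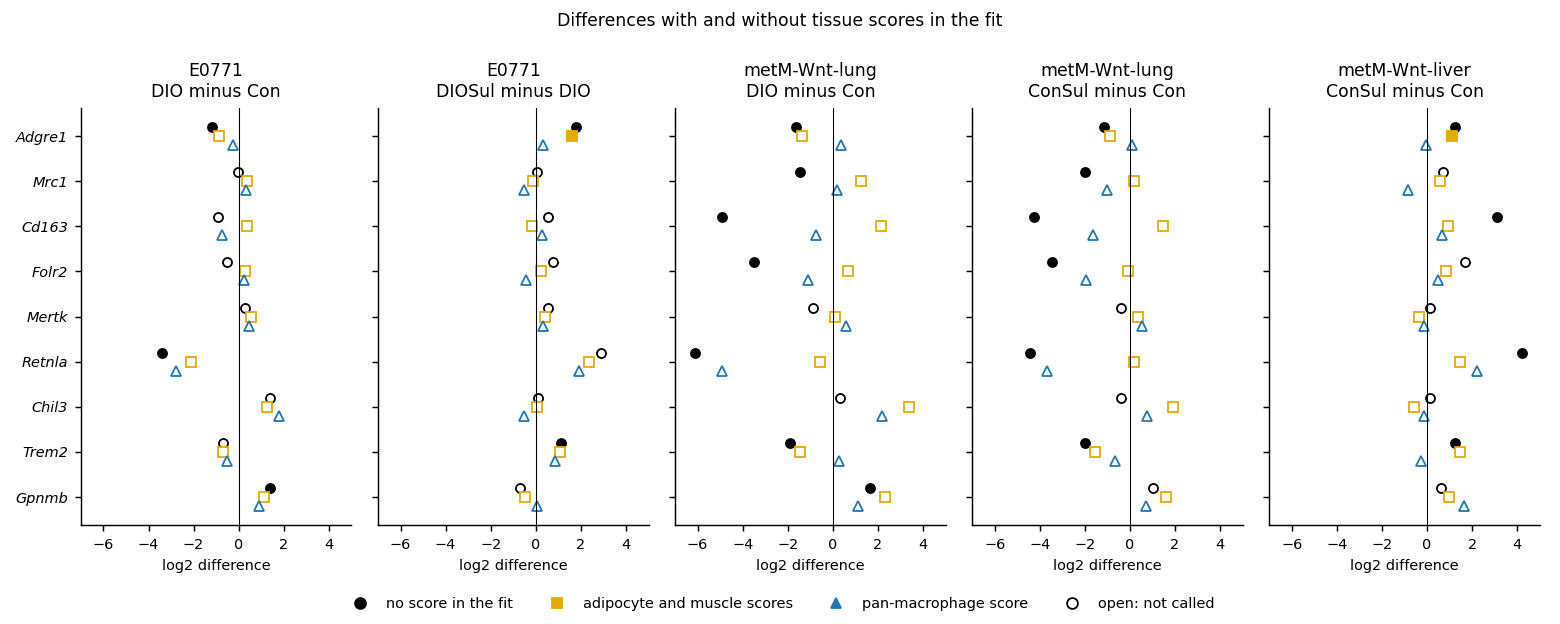
Log2 differences of the 9 genes in 5 comparisons under the limma model as described, with the adipocyte and muscle scores added, and with the score of other pan-macrophage genes added. Filled points have an adjusted p under 0.05, and no intervals are drawn. Adgre1 in E0771 DIOSul minus DIO lies at 1.61 beside the adipocyte and muscle scores and falls to 0.33 beside the pan-macrophage score, while Cd163 in metM-Wnt-lung DIO minus Con moves to 2.15 beside the adipocyte and muscle scores.

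In E0771 tumors the same models gave other values. With adipocyte and muscle scores, Adgre1 in DIOSul against DIO stayed at 1.61 (adjusted p = 0.000205), Trem2 at 1.09 (adjusted p = 0.0625) and Retnla at 2.37 (adjusted p = 0.0801), where 3.66% of all genes were called. In DIO against Con, Adgre1 was at −0.87 (adjusted p = 0.0805), Retnla at −2.11 (adjusted p = 0.172) and Gpnmb at 1.13 (adjusted p = 0.121). With the pan-macrophage score, 0 of all genes were called in either comparison. Adgre1 was then at 0.33 (adjusted p = 0.902) in DIOSul against DIO. As the pan-macrophage score did not overlap between DIOSul and DIO tumors, the model cannot tell it apart from sulindac in that comparison.

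Variation among tumors of the same line and condition was described next. Each tumor's deviation from its set mean was taken, over 79 tumors, and correlated with scores of 7 other gene lists (63 correlations, permutation tests, adjusted p by Benjamini-Hochberg). Cd163 followed the adipocyte score most closely (Pearson's r = 0.732, adjusted p = 0.000126, Spearman's rho = 0.652, adjusted p = 0.000158). Its r was 0.871 within metM-Wnt-lung, 0.601 within metM-Wnt-liver and 0.665 within E0771 tumors, and 0.663 without the 2 tumors farthest in score. Retnla (r = 0.642, rho = 0.579), Folr2 (r = 0.558, rho = 0.525) and Mrc1 (r = 0.519, rho = 0.468) followed it too, with adjusted permutation p at or under 0.000882, and without the 2 farthest tumors these r were 0.590, 0.465 and 0.434. In metM-Wnt-liver tumors the r of Folr2 and Mrc1 were 0.185 and 0.147.

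Adgre1 and Trem2 followed other macrophage genes instead. Adgre1 had r = 0.878 and rho = 0.871 with the pan-macrophage score (adjusted permutation p = 0.000126 and 0.000158), 0.854 without the 2 farthest tumors and 0.770 to 0.931 within the lines, and r = 0.258 with the adipocyte score (adjusted permutation p = 0.157). Trem2 had r = 0.459 and rho = 0.446 with the pan-macrophage score (adjusted permutation p = 0.00525 and 0.00147), with r = 0.752 within metM-Wnt-lung and 0.127 within E0771 tumors. Gpnmb had r = −0.213 with that score (adjusted permutation p = 0.237), and r = 0.232 with the melanocyte score (adjusted permutation p = 0.232). Its largest r was 0.354, with the eosinophil score (adjusted permutation p = 0.0865), and 0.122 without the 2 farthest tumors. With the neutrophil score its r was 0.151 (adjusted permutation p = 0.429), at 0.704 within metM-Wnt-liver, 0.162 within metM-Wnt-lung and −0.214 within E0771 tumors. Chil3 correlated with the neutrophil score by rank (rho = 0.426, adjusted permutation p = 0.00333) and less by value (r = 0.338, adjusted permutation p = 0.0554), with 0.622 in E0771 tumors. The defining eosinophil genes Epx and Siglecf lay between 3.09 and 5.28 in all tumors, near the bottom of the arrays.

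**Figure D5:**
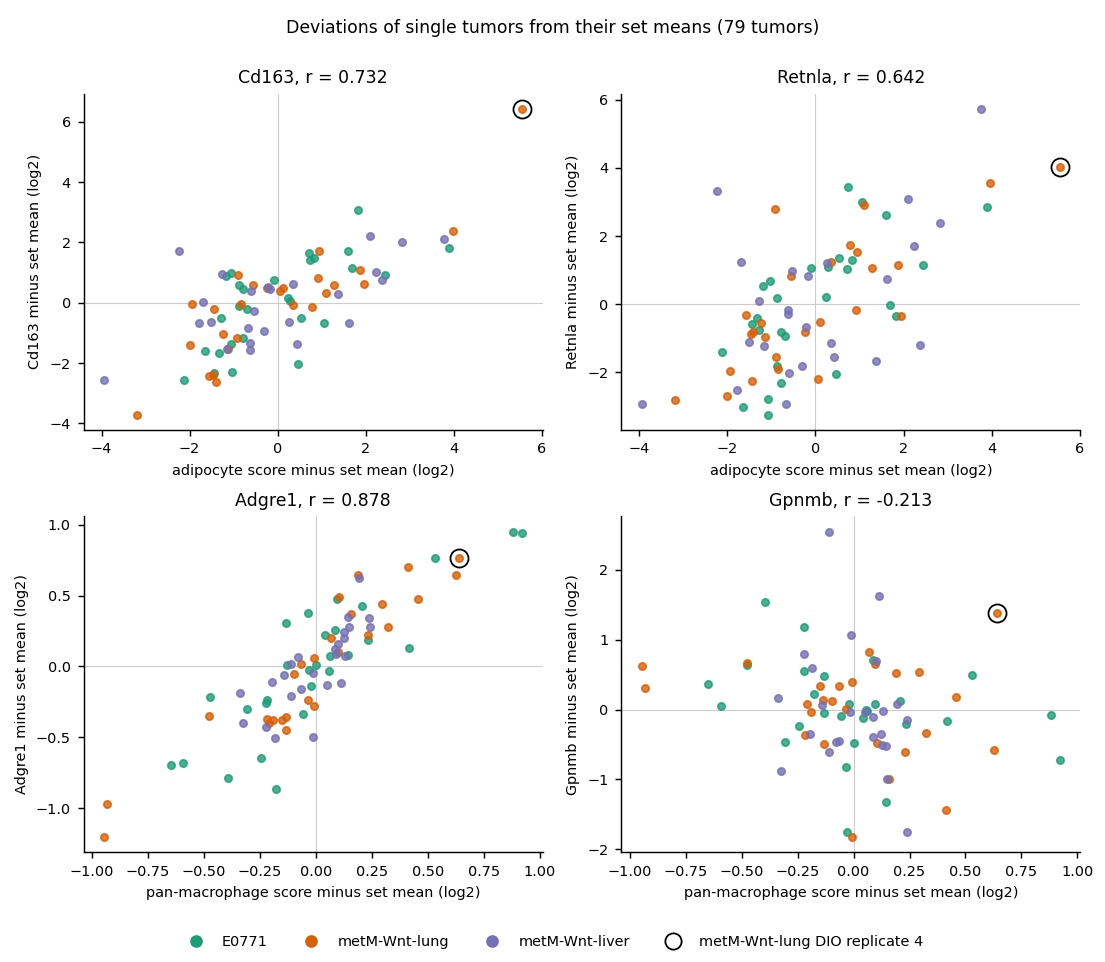
Deviation of 4 genes from their set mean against the deviation of a marker score, both on the log2 scale, for 79 tumors coloured by line. Cd163 and Retnla rise with the adipocyte score and Adgre1 with the pan-macrophage score, while Gpnmb shows no such slope with the pan-macrophage score.

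Among themselves, the deviations of Cd163 and Folr2 were most alike (r = 0.767), followed by Mrc1 and Cd163 (0.689), Mrc1 and Folr2 (0.577) and Cd163 and Retnla (0.574), and Adgre1 was closest to Trem2 (0.546). Over the 12 set means these pairs were alike too, with r of 0.951 for Cd163 and Folr2, 0.943 for Cd163 and Retnla, 0.71 for Mrc1 and Cd163 and 0.901 for Adgre1 and Trem2. In the deviations Gpnmb stood alone, with r of −0.264 to Adgre1 and no other of the 9 genes above 0.085. Over the 12 set means it ran opposite to Trem2 (−0.925), Mertk (−0.907) and Adgre1 (−0.75). Its r with the other genes there lay between 0.131 (Mrc1) and 0.512 (Retnla). These values and those that follow are descriptions over 79 tumors that share an array type and tissue, and they carry no p. Of all 19505 genes, the 3 closest to Cd163 were Cd209f (0.896), Cbr2 (0.876) and Cd209g (0.864), and Cbr2 was also closest to Folr2 (0.831), followed by Fcna (0.781). Closest to Mrc1 were Lifr (0.774) and F13a1 (0.771), and closest to Adgre1 were Ctsh and Ly86 (0.856 each). Retnla was nearest to Cd55b (0.729), with the lectin gene Clec10a at 0.708. Trem2 was nearest to Rab3il1 (0.674), followed by Lgmn, which encodes a lysosomal protease, and Gpnmb to Lgals3 (0.577), which encodes galectin-3. Mertk had Phka2 (0.646) nearest. Chil3 was nearest to Chil4 (0.837), a near-identical neighbour in sequence whose RNA the probes may share, so that likeness is uncertain.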

How the data were processed

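RNA from 79 whole tumors was hybridized to Clariom S mouse arrays. The deposited values are log2 signals that the authors made with signal space transformation and RMA in the Transcriptome Analysis Console 4.0. Of 22206 transcript clusters, 19572 carried 1 gene symbol and gave 19505 genes, the cluster with the highest mean standing for a gene with several (55 genes). Array medians lay between 6.285 and 6.805, and the number of arrays limits the precision. Nothing was renormalized or filtered. Differences were tested with limma 3.58.1 (R 4.3.3), fitting each line's 4 groups together, and all 12 sets together for comparisons of lines, with empirical Bayes variances and Benjamini-Hochberg adjustment over all genes, and the fit was checked on simulated data. A list score is the mean of its genes after each gene's mean over the line is removed. In models of all 12 sets the mean over the 79 tumors was removed instead. Named genes are the 9 analysed members, up to 3 called genes of each of 20 lists by adjusted p, the 3 genes nearest to each member, and defining markers of other cells. The members and lists were chosen with earlier results of these data known. The alternatives were other normalization, variances, weights, filters, samples and covariates, a replicate block, and each array left out. Correlations used SciPy 1.17.1 with 100000 permutations.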

Additional observations from a re-analysis of the deposited data

Results flagged for a closer look

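Single tumors lay far from the rest of their set, by Dixon's test, in 11 of 108 gene and set combinations, where chance gives about 1 in 20. MetM-Wnt-lung DIO 4 was high for Mrc1 (15.25, the next tumor at 13.20), Cd163 (11.39, next 5.47) and Retnla (6.48, next 2.13). Low tumors were metM-Wnt-lung ConSul 5 for Cd163 (4.27), ConSul 2 for Chil3 (6.91) and ConSul 4 for Gpnmb (8.57), E0771 DIO 6 for Chil3 (8.46) and E0771 Con 4 for Mertk (6.03). High tumors were metM-Wnt-liver DIOSul 5 for Gpnmb (11.60), DIO 3 for Gpnmb (12.44) and DIO 2 for Mertk (11.43).

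Effects that differed between diets or lines by their own limma test were 26 in all. The sulindac response of metM-Wnt-lung tumors was higher in obese than in lean mice for Adgre1 (1.44), Cd163 (5.44), Retnla (6.23), Trem2 (2.22) and Folr2 (3.53). For DIO minus Con, metM-Wnt-lung differed from E0771 for Cd163 (−4.03) and Folr2 (−2.97), and from metM-Wnt-liver for Adgre1 (−1.36), Mrc1 (−1.83), Cd163 (−4.84), Retnla (−4.90), Trem2 (−1.77) and Folr2 (−3.78). For DIOSul minus DIO, Adgre1 differed from E0771 in metM-Wnt-lung (−1.50) and metM-Wnt-liver (−1.28). For ConSul minus Con, metM-Wnt-lung differed from E0771 for Adgre1 (−1.54), Cd163 (−4.39), Retnla (−5.18), Trem2 (−2.58) and Folr2 (−3.93), and from metM-Wnt-liver for Adgre1 (−2.36), Mrc1 (−2.74), Cd163 (−7.33), Retnla (−8.64), Trem2 (−3.23) and Folr2 (−5.11). All of these except the 2 values of Adgre1 for DIOSul minus DIO rest on metM-Wnt-lung Con or metM-Wnt-liver ConSul arrays, which stood apart in spread.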

How the results depend on the processing

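Of 67 called differences of the 9 genes, all kept direction and call under array weights and the mean over transcript clusters. Under quantile normalization 65 did, Mrc1 (−1.71, adjusted p = 0.0516, DIO minus Con, metM-Wnt-lung minus metM-Wnt-liver) and Adgre1 (−1.29, adjusted p = 0.0515, DIOSul minus DIO, metM-Wnt-liver minus E0771) missing the threshold, and under trended robust variances 65 did, Retnla missing it in E0771 DIO minus Con (adjusted p = 0.0551) and metM-Wnt-liver ConSul minus Con (adjusted p = 0.0579). Adipocyte and muscle scores as covariates left 0 genes called in E0771 DIO minus Con and in metM-Wnt-lung DIO minus Con and ConSul minus Con. They also left 0 in DIOSul minus ConSul over the lines and in the interactions. In E0771 DIOSul minus DIO they left 1, and 1 in metM-Wnt-liver ConSul minus Con. They left 5 in metM-Wnt-lung minus E0771 and 5 of 21 among the line differences in response. In metM-Wnt-liver minus E0771 5 were called, among them Mrc1, which was not called without the scores. The score of other pan-macrophage genes left 0 in every one of the comparisons within a line and in metM-Wnt-lung minus metM-Wnt-liver, and 1 of the 21. That score did not overlap between the groups of E0771 DIOSul minus DIO and metM-Wnt-lung DIO minus Con and ConSul minus Con. Nor did it in metM-Wnt-liver ConSul minus Con and DIOSul minus ConSul. In these comparisons it cannot be told apart from the condition. Array weights gave 5 in E0771 DIO minus Con, 5 in DIOSul minus DIO and 8 interactions, while the calls over all genes went up too, to 3781 in the first and 4780 in the second, against 1008 and 981 without weights. Genes above the median gave 2 in metM-Wnt-liver ConSul minus Con because the filter removed the other 2, and all 54 called differences left under it were kept, and DIO minus ConSul, in which sulindac differs as well, gave 0 in metM-Wnt-lung. Leaving out arrays high in muscle or skin genes, chosen after seeing the data, gave 2 in metM-Wnt-liver ConSul minus Con, 1 in DIOSul minus ConSul and 0 interactions, and also ended the calls of Gpnmb in E0771 DIO minus Con, Mrc1 in metM-Wnt-lung DIO minus Con, and Adgre1 and Cd163 in metM-Wnt-lung ConSul minus Con (adjusted p = 0.0501 to 0.146). Leaving out 1 array at a time gave 1 to 4 in E0771 DIO minus Con, 1 to 3 in E0771 DIOSul minus DIO, 6 to 8 in metM-Wnt-lung DIO minus Con, 6 to 7 in metM-Wnt-lung ConSul minus Con, 2 to 4 in metM-Wnt-liver ConSul minus Con, 1 to 3 in DIOSul minus ConSul, 4 to 7 interactions, and 0 in the others. The causes were not tested.

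Directions of called differences reversed only under the 2 kinds of covariate. With the pan-macrophage score Adgre1 turned to 0.35 in metM-Wnt-lung DIO minus Con, 0.10 in its ConSul minus Con, −0.37 in its interaction, −0.068 in metM-Wnt-liver ConSul minus Con, 0.25 in its DIOSul minus ConSul, −0.32 in metM-Wnt-lung minus E0771, −0.38 in metM-Wnt-liver minus E0771, 0.061 in metM-Wnt-lung minus metM-Wnt-liver, and 0.39 (DIO minus Con, metM-Wnt-lung minus metM-Wnt-liver), 0.046 (DIOSul minus DIO, metM-Wnt-liver minus E0771) and 0.0077 (ConSul minus Con, metM-Wnt-lung minus metM-Wnt-liver) in the line differences. Mrc1 turned to 0.18 and Trem2 to 0.26 in metM-Wnt-lung DIO minus Con, and Trem2 to −0.26 in metM-Wnt-liver ConSul minus Con and 0.32 in its DIOSul minus ConSul. With adipocyte and muscle scores Mrc1, Cd163 and Folr2 turned to 1.26, 2.15 and 0.68 in metM-Wnt-lung DIO minus Con, Mrc1, Cd163 and Retnla to 0.18, 1.44 and 0.19 in its ConSul minus Con, and Cd163 and Folr2 to −1.46 and −0.54 in its interaction. In metM-Wnt-lung minus E0771 Mrc1 turned to 0.20 and Cd163 to 0.14, in metM-Wnt-liver minus E0771 Folr2 to 0.10, and in the line differences Cd163 to 0.27 (DIO minus Con, metM-Wnt-lung minus E0771), 0.21 and 0.53 (ConSul minus Con, metM-Wnt-lung minus E0771 and minus metM-Wnt-liver). Of these reversed values only the Adgre1 differences of −0.32 and −0.38 were called. Mrc1 in metM-Wnt-liver minus E0771, not called at −0.14, turned to 0.64 and was called with adipocyte and muscle scores (adjusted p = 0.0237).

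Replicate numbers did not pair the tumors (mean correlation of same-numbered deviations 0.043 in metM-Wnt-lung, −0.0116 in metM-Wnt-liver and −0.00692 in E0771). With the replicate block 2 of the 9 genes were called in E0771 DIO minus Con, Gpnmb missing the threshold (adjusted p = 0.0524), 2 in DIOSul minus DIO, 0 in ConSul minus Con, 8 in metM-Wnt-lung DIO minus Con, 6 in its ConSul minus Con, 4 in metM-Wnt-liver ConSul minus Con, 2 in DIOSul minus ConSul and 6 interactions, and 583 of all genes in E0771 DIO minus Con, against 1008 without it. Signals near the bottom percentile, as for Retnla in metM-Wnt-lung DIO tumors, bound how low a level can be read.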
